A study of Homo sapiens with 8 samples.

Results

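The mature miRNAs of the miR-193 and miR-365 clusters were followed in INA-6 cells treated with the EZH2 inhibitor UNC1999. The 5 members are hsa-miR-193a-3p, hsa-miR-193a-5p, hsa-miR-193b-3p, hsa-miR-193b-5p and hsa-miR-365a-3p (written without the species prefix hereafter), taken by name out of the 2549 human miRNAs on the array. INA-6 is an established human multiple myeloma (MM) cell line that is grown with IL-6, and both groups come from this single line. EZH2 is the methyltransferase of PRC2, which places the repressive H3K27me3 mark, and UNC1999 is a small molecule that inhibits it. Total RNA was hybridized to 8 single-colour miRNA arrays, 4 of cells given DMSO, the solvent, and 4 of cells given 1 μM of UNC1999, all for 120 hours. The titles call the samples biological replicates and name DMSO as the control, whereas the treatment protocol of the same samples names the inactive compound UNC2400, and the samples were taken as DMSO controls.

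A miRNA hairpin is cut into a duplex, and the 5p or the 3p strand is loaded into an Argonaute protein, where bases 2 to 8, the seed, pair with target mRNAs while the other strand is mostly degraded. For the miR-193b and miR-365 hairpins the 3p strand is known as the main product. miR-193a-3p and miR-193b-3p are known as tumor suppressive miRNAs that act on KIT, MCL1 and CCND1, and miR-365 also acts on CCND1. The gene of miR-193a is known to be silenced by DNA methylation in blood cancers, and the miR-193b and miR-365 cluster is best known from brown fat.

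The sequences are given first because the members are read by probes for short RNAs, some of which are nearly or fully alike. They were taken from RefSeq (GRCh38.p14), in which 5 of 5 members matched, and are written 5′ to 3′ with the seed in capitals.
miR-193a-3p: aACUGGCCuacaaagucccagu
miR-193b-3p: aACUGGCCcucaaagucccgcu
miR-365a-3p: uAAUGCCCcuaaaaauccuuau
miR-365b-3p: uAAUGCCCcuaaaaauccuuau
miR-193a-5p: uGGGUCUUugcgggcgagauga
miR-193b-5p: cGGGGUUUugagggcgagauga
miR-193a-3p and miR-193b-3p share the seed ACUGGCC, which no other mature miRNA of the RefSeq table holds. They differ at 4 of 22 positions, all outside the seed, U9C, A10U, A20G and G21C, with the base of miR-193a-3p first and positions counted from 1 at its 5′ end. The 5p strands differ at 4 of 22 positions too, U1C, U5G, C6U and C11A, and the pair U5G and C6U falls within the seed. miR-365a-3p and miR-365b-3p are identical over all 22 bases. miR-365b-3p had no probe name of its own on the array, so the signal named miR-365a-3p cannot be assigned to the locus on chromosome 16 or to that on chromosome 17.

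The loci lie on 2 chromosomes of GRCh38.p14. MIR193B lies at chr16:14303967-14304049 and MIR365A at chr16:14309285-14309371, both on the plus strand, with 5235 bases between them and both inside the annotated span of the non-coding host gene MIR193BHG. MIR193A lies at chr17:31559996-31560083 on the plus strand, in no other annotated gene. MIR365B at chr17:31575411-31575521 lies 15327 bases further along the same strand, inside the span of MIR365BHG together with MIR4725 at chr17:31575269-31575358. The table gives gene spans, so exon and intron were not told apart, and the design file behind the scanner output names another genome build, from which no coordinate was taken.

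The values used here are spot intensities with the background subtracted, averaged over the 10 spots of each probe, summed over the 2 probes of a miRNA and scaled to the 75th percentile of the 346 miRNAs detected on all 8 arrays. A scaled signal has no unit of mass, and because the probes of different miRNAs differ, it does not compare the amounts of different miRNAs. Ratios between members are read below for the change between groups alone. Where signals of different miRNAs are summed or set against the lowest detected signal, brightness on the array is meant and not amount. By the marks of the scanner software 369 and 370 miRNAs were detected in DMSO replicates 2 and 3 and 474 to 500 on each of the remaining arrays. Among 5 blood cell miRNAs used as markers, miR-142-3p, miR-142-5p and miR-150-5p were detected on all 8 arrays, miR-155-5p on 2 UNC1999 arrays and miR-146a-5p on 0. Of 13 markers of other cell types 12 were detected on 0 of 8 arrays, among them miR-451a of red cells and miR-126-3p of endothelial cells, and the myeloid miR-223-3p was detected on all 8. The summed scaled signal of the blood list was 4804 to 6126 on the DMSO arrays and 3391 to 4285 on the UNC1999 arrays, and that of the other list 49.7 to 82.6 and 71.7 to 128.0. In both sums values below 0 were counted as 0. The lower blood sum depends on the scaling, since without it miR-142-3p, miR-142-5p and miR-150-5p were higher after UNC1999. Of the other list's sum, miR-223-3p made a mean of 38.3 in DMSO and 88.6 after UNC1999, and the rest came from markers that were not detected.

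To ask how the clusters responded to EZH2 inhibition, limma was fitted on the 456 miRNAs that were detected on every array of the DMSO group, the UNC1999 group or both. A called miRNA is one that changed at least 1.2-fold with a Benjamini-Hochberg adjusted p not above 0.05. Of the 5 members 3 passed this filter. miR-365a-3p and miR-193b-3p were detected on all 8 arrays, and on scaled signals the first was called lower after UNC1999 treatment, a direction that turned without scaling or with the labelling spike-ins, and the second was not called. miR-193a-3p passed only through the UNC1999 group, in which it is high, and was called higher, a direction that turned with normexp. Like miR-193a-3p, 20 tested miRNAs were detected on every UNC1999 array and on no DMSO array. All 20 of the 20 were called, so in this class the call followed from the detection pattern. The call of miR-193a-3p is therefore given as a description. Over all tested miRNAs 70.6% were called, 36% higher and 34.6% lower. Values depend on the scaling, and of the called miRNAs 164 of 322 were higher as reported, 192 of 280 with scaling to the 75th percentile of every human miRNA on the array, 54 of 284 with normexp background correction, 109 of 248 among miRNAs detected on all arrays, 71 of 195 with no filter on detection, 234 of 238 without scaling and 295 of 302 with scaling to the labelling spike-ins. In the total RNA of a culture, fewer cells with a miRNA and less of it per cell cannot be told apart.

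miR-193a-3p, the product of the chromosome 17 hairpin, was the only member whose detection changed. On the DMSO arrays of replicates 1 to 4 its scaled signal was 8.30, 6.04, 11.4 and 7.75, and it was marked as detected on 0 of 4. On the UNC1999 arrays it was 17, 17.1, 11.6 and 14.4, and it was marked as detected on 4 of 4. Every UNC1999 value lay above every DMSO value, narrowly so for the highest DMSO array, replicate 3, and the lowest UNC1999 array, also replicate 3. The groups did not overlap for 65.4% of all tested miRNAs. The log2 fold change was 0.64 on a scale where signals below 8.98 were raised to that floor, as on 3 of the 4 DMSO arrays. It is understated by the floor, and its limma adjusted p of 0.0033 does not measure the spread of the DMSO arrays.

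**Figure D1:**
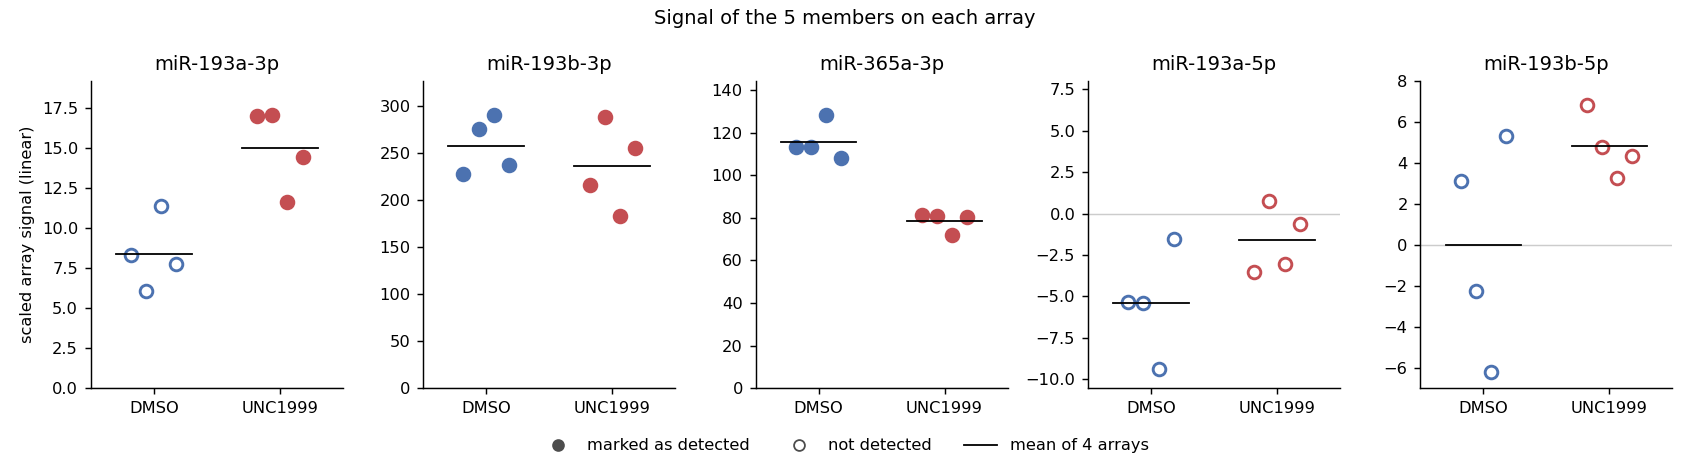
Scaled array signal (linear axis, no unit of mass) of the 5 members on each of 4 DMSO and 4 UNC1999 arrays, with filled points where the scanner software marked the miRNA as detected, open points where it did not, and a line at the mean of 4 arrays. miR-193a-3p is open at 6.04 to 11.4 in DMSO and filled at 11.6 to 17.1 after UNC1999, miR-193b-3p overlaps between the groups, miR-365a-3p does not, an order that depends on the scaling, and neither 5p strand is detected on any array.

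Because miR-193a-3p was not detected in DMSO, its change is also given against a stand-in. Set against the higher of its own signal and the lowest detected signal of each DMSO array, it was 1.13-fold higher after UNC1999 treatment. This is no strict lower limit, since brighter miRNAs can go undetected, as miR-129-2-3p did at a mean of 21.8 in DMSO. It carries no error, and with normexp the direction turned. The value is low because the lowest detected signal was 17.6 and 23.1 on the arrays of DMSO replicates 2 and 3, above every UNC1999 value of miR-193a-3p, against 8.43 and 8.62 on those of replicates 1 and 4. Against replicates 1 and 4 alone miR-193a-3p was 1.74-fold higher. On replicates 2 and 3 no miRNA as dim as miR-193a-3p at its UNC1999 level was thus marked as detected. Without these 2 arrays its log2 fold change was 0.82. miR-193a-3p was 1 of the 20 miRNAs, of 456 tested, detected on every array of UNC1999 and none of DMSO, and 0 showed the opposite pattern. That opposite pattern needs detection on DMSO replicates 2 and 3, where 54 tested miRNAs detected on replicates 1 and 4 were not detected.

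The direction of miR-193a-3p turned under 1 alternative. With normexp background correction, which adds an offset of 50 to every spot, its log2 fold change was -0.28 and not called, while the median of all tested miRNAs moved to -0.29. With no filter on detection its log2 fold change of 0.64 was not called (limma adjusted p = 0.064), and with a paired test by replicate number it was not called at an unadjusted or an adjusted p. In the deposited processed table, where undetected miRNAs lie near the log2 of 0.1, the difference was 3.34, a size set by the value put in place of undetected signals.

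The higher signal of miR-193a-3p came from 1 of its 2 probes. The brighter probe read 8.25, 6.18, 8.05 and 6.25 on the DMSO arrays and 14.48, 14.79, 10.99 and 13.21 on the UNC1999 arrays, with no overlap. Of its spots 0 of 40 were well above background in DMSO and 10 of 40 after UNC1999, on 3 of the 4 arrays. The dimmer probe read -0.13 to 3.36 in DMSO and 0.66 to 2.52 after UNC1999, with 0 spots well above background in either group. The median of the 400 negative control spots was 1.18 to 3.97 and their 95th percentile 5.37 to 13.2 on the same scale. On the 4 UNC1999 arrays the brighter probe lay above the 95th percentile of that array's negative controls, which was 5.37 to 8.25 there, whereas on the DMSO arrays that percentile was 6.73 to 13.2.

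**Figure D2:**
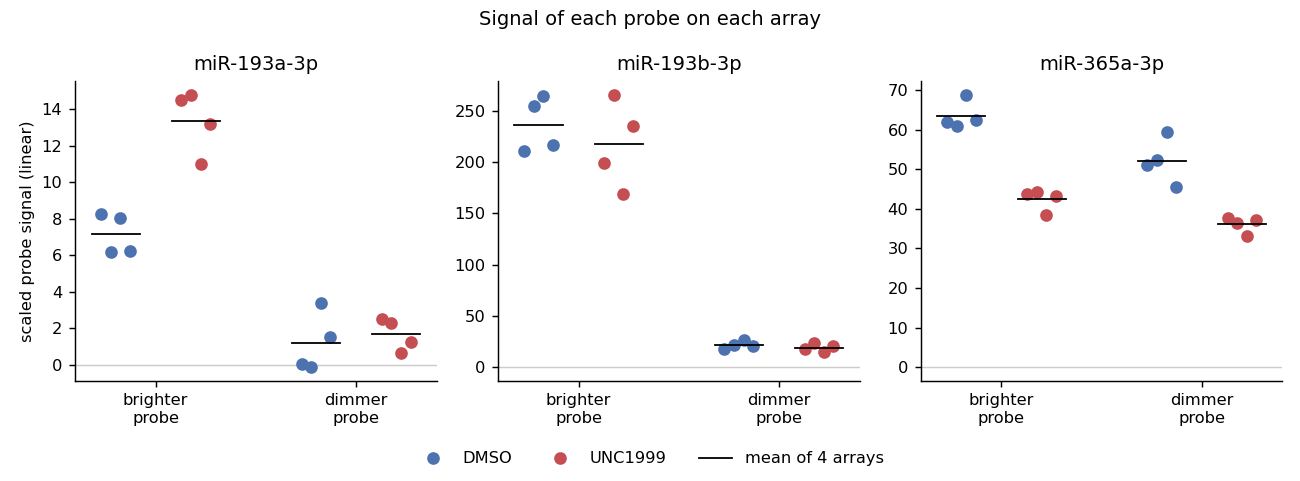
Scaled signal (linear axis) of the brighter and the dimmer probe of miR-193a-3p, miR-193b-3p and miR-365a-3p on each array (points) with the mean of 4 arrays (lines). The groups are apart for the brighter miR-193a-3p probe, at 6.18 to 8.25 and 10.99 to 14.79, and for both miR-365a-3p probes, and overlap for the others.

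miR-193b-3p, the paralog from chromosome 16 with the same seed, was detected on all 8 arrays and did not pass the test. Its scaled signal was 228.2, 275.7, 290.7 and 237.1 on the DMSO arrays and 216.3, 288.8, 183.8 and 255.6 on the UNC1999 arrays. The groups overlapped, with the highest value of the UNC1999 arrays above 3 of the 4 DMSO values. The log2 fold change was -0.14 (limma adjusted p = 0.41), with a 95% confidence interval of -0.47 to 0.19, which spans 0.72-fold to 1.14-fold. Its sign changed with the setting, with values of 0.08 under scaling to the 75th percentile of every human miRNA and 0.02 without DMSO replicates 2 and 3. It was 0.56 without scaling, where the median tested miRNA was at 0.67, and 0.67 with scaling to the labelling spike-ins, where it was called higher and the median was at 0.78. Both probes overlapped between the groups, the brighter at 210.3 to 264.3 in DMSO and 169.0 to 265.6 after UNC1999, and the dimmer at 17.9 to 26.4 and 14.9 to 23.2.

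miR-365a-3p, which carries another seed and whose sequence both clusters encode, was detected on all 8 arrays. Its scaled signal was 113.1, 113.4, 128.2 and 107.8 on the DMSO arrays and 81.4, 80.6, 71.7 and 80.3 on the UNC1999 arrays. Every UNC1999 value lay below every DMSO value (p = 0.029, two-sided exact permutation test). The signal fell by 0.56 on the log2 scale after UNC1999 treatment, to 0.68 of the DMSO level (95% confidence interval 0.59 to 0.79, limma adjusted p = 9.5e-04), whereas without scaling between arrays and with scaling to the labelling spike-ins its log2 fold change was 0.14 and 0.26 and not called. Without DMSO replicates 2 and 3 it was -0.47 and called. Before scaling the summed intensities were 103.5, 76.4, 73.2 and 116.3 on the DMSO arrays and 107.8, 110.2, 101.0 and 82.9 on the UNC1999 arrays, which overlap. The lower level after scaling is relative to the rest of the array's miRNAs.

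Both probes of miR-365a-3p moved alike and had 40 of 40 spots well above background in each group. The brighter probe read 60.9 to 68.9 in DMSO and 38.6 to 44.2 after UNC1999, and the dimmer 45.4 to 59.3 and 33.2 to 37.6. For neither did the groups overlap (p = 0.029 for each in a two-sided exact permutation test, 0.057 after adjustment over the 6 probes of tested members). On the slide the arrays of DMSO replicates 1, 2 and 4 and UNC1999 replicate 4 lay in row 1 and the other 4 in row 2. The difference of miR-365a-3p was -0.47 within row 1 and -0.72 within row 2, and with the row as a block -0.60 (limma adjusted p = 0.0037). For miR-193a-3p the same values were 0.68, 0.40 and 0.54, and for miR-193b-3p 0.05, -0.37 and -0.16 (limma adjusted p = 0.46).

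**Figure D3:**
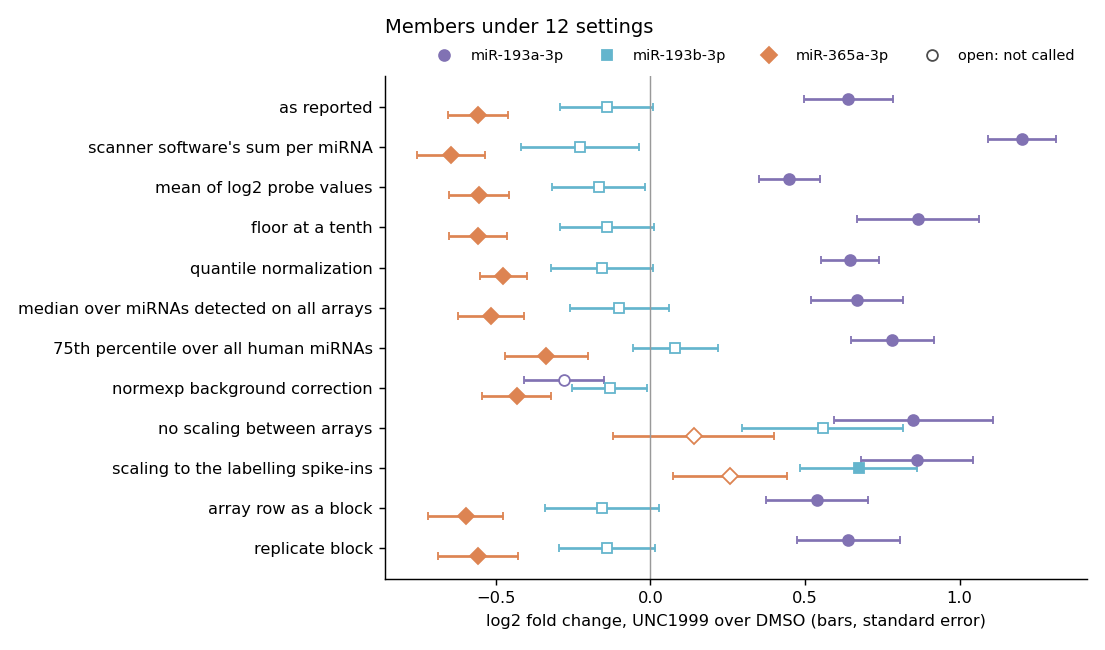
Log2 fold change of UNC1999 over DMSO with its standard error for the 3 tested members, as reported and under 11 other settings, filled where called. For miR-193a-3p 3 of the 4 DMSO values are at the floor as reported, so its bar does not measure the spread in DMSO. miR-193a-3p is above 0 except with normexp (-0.28), miR-365a-3p is below 0 except without scaling (0.14) and with the labelling spike-ins (0.26), and miR-193b-3p lies on both sides.

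The log2 ratio of miR-193b-3p to miR-365a-3p, members encoded together on chromosome 16, was formed within each array, where 1 scaling factor per array cancels. It was 1.01, 1.28, 1.18 and 1.14 on the DMSO arrays and 1.41, 1.84, 1.36 and 1.67 on the UNC1999 arrays. Every UNC1999 value lay above every DMSO value, at 1.15 ± 0.11 (SD, n = 4) in DMSO and 1.57 ± 0.23 (SD, n = 4) after UNC1999. The ratio was 1.33-fold higher (two-sided exact permutation test, p = 0.029, the smallest that 4 against 4 arrays can give). Adjustment over the 3 pairs of tested members left this p unchanged only because the other pairs, which hold miR-193a-3p, gave the same p. miR-193b-3p and miR-365a-3p thus changed unequally, which does not show which of them changed. How often the ratios of other pairs of miRNAs separate in this way was not examined. The scaled signals of the groups did not overlap for 65.4% of all tested miRNAs, so separation is not particular to this pair. The groups overlapped with quantile normalization, at a change of 0.32, and in the deposited processed values, at 0.41. Within rows 1 and 2 of the slide the change was 0.53 and 0.35.

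Ratios with miR-193a-3p are a description only, since it was not detected in DMSO and the floor, set after scaling, stands in for 3 of its 4 DMSO values, so that the scaling does not cancel. The log2 ratio of miR-193a-3p to its seed paralog miR-193b-3p was -4.67, -4.94, -4.67 and -4.72 in DMSO and -3.67, -4.08, -3.98 and -4.15 after UNC1999, a change of 0.78. The change was 0.29 without scaling and 0.19 with the labelling spike-ins, both with overlapping groups, and -0.15 with normexp, also with overlap. With a floor low enough to raise none of these signals, it was 1.01 without overlap. That of miR-193a-3p to miR-365a-3p was -3.65, -3.66, -3.49 and -3.59 in DMSO and -2.26, -2.24, -2.62 and -2.48 after UNC1999, a change of 1.2, and 0.71 without scaling, 0.60 with the spike-ins and 0.15 with normexp.

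**Figure D4:**
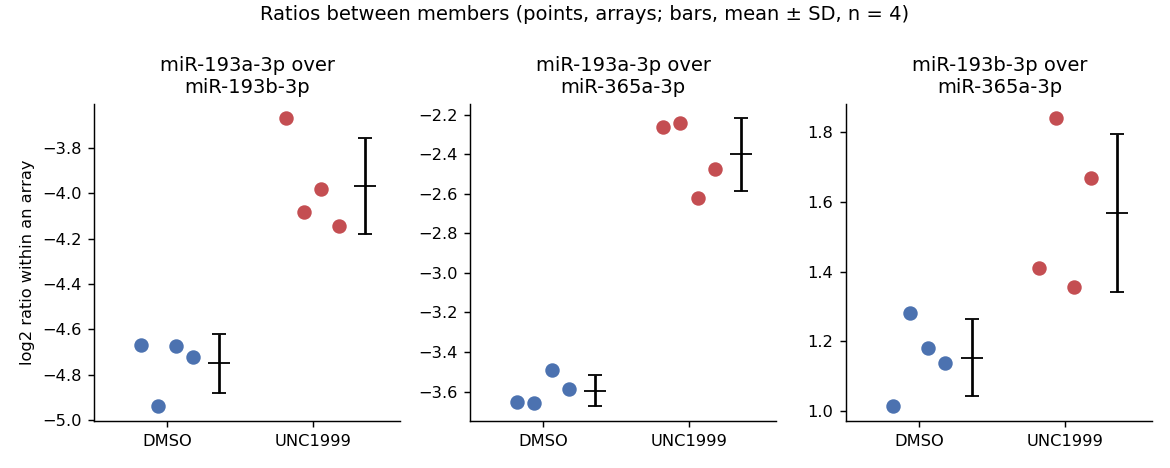
Log2 ratio within an array for the 3 pairs of tested members, with points for arrays and bars for the mean ± SD (n = 4). In each panel every UNC1999 array lies above every DMSO array, with changes of 0.78, 1.2 and 0.42 from left to right. In the left and middle panels 3 of the 4 DMSO points rest on the floor, and without scaling the change on the left is 0.29 with overlap.

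The 5p strands were not detected. The scaled signal of miR-193a-5p was -5.35, -5.38, -9.37 and -1.52 on the DMSO arrays and -3.51, 0.73, -3.05 and -0.61 on the UNC1999 arrays, where a value below 0 is a spot dimmer than its background. That of miR-193b-5p was 3.12, -2.27, -6.22 and 5.32 in DMSO and 6.82, 4.75, 3.29 and 4.35 after UNC1999. All 16 of these values lie below the floor of 8.98, the groups overlap for both, and 0 of 40 spots of any probe were well above background in either group. A change of the 5p strands was therefore not detectable at this signal, and they did not enter the fit as reported. They entered it only with no filter on detection and with every feature of the deposited processed values. Neither was called there, where the floor or the value put in place of undetected signals stood for theirs.

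Of the other mature miRNAs of the 2 loci, 4 had probes. miR-365a-5p, miR-365b-5p and miR-4725-3p were detected on 0 of 8 arrays. miR-4725-5p, whose hairpin lies 52 bases from MIR365B, was detected on all 8, at 39.1, 46.7, 57.9 and 32.6 in DMSO and 24.1, 28.1, 21.6 and 26.2 after UNC1999. The groups did not overlap, and its log2 fold change was -0.79 (limma adjusted p = 0.0026), but -0.09 without scaling and 0.02 with the labelling spike-ins, neither of them called. Over the 8 arrays its log2 signal correlated with that of miR-365a-3p with a Pearson r of 0.95, with miR-193b-3p with 0.66 and with miR-193a-3p with -0.56. These values describe 8 arrays that share the difference between the groups and are given without a test.

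The tested miRNAs most like each member over the 8 arrays were sought in the same way. 3 of the 4 DMSO values of miR-193a-3p are the floor, so every correlation with it rests on DMSO replicate 3 and the UNC1999 arrays. miR-193a-3p was closest to miR-223-3p, the myeloid miRNA (r = 0.93), miR-1183 (r = 0.89) and miR-130a-3p (r = 0.89). miR-223-3p rose by 1.18 on the log2 scale, from 38.3 ± 5.46 to 88.6 ± 23.7 scaled signal (SD, n = 4 each), and was called higher under every scaling run (limma adjusted p = 5.7e-04 as reported), but with normexp it was at 0.04 and not called. miR-193b-3p was closest to miR-4497 (r = 0.97), miR-183-5p (r = 0.94) and miR-7-5p (r = 0.94), and miR-365a-3p to miR-550a-3p, miR-766-3p and miR-664b-3p (r = 0.98 for each). After the group means were taken away, miR-193b-3p and miR-365a-3p deviated together with r = 0.71. By these deviations the closest to miR-193a-3p were miR-365a-3p, miR-550a-3p and miR-183-5p, to miR-193b-3p miR-223-3p, miR-4497 and miR-105-5p, and to miR-365a-3p miR-933, miR-1304-3p and miR-6865-3p. All points share the scaling of their array, whose part in these values was not tested.

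Other miRNAs known to act on KIT, MCL1 or CCND1, the targets of miR-193a-3p and miR-193b-3p, were mostly lower on scaled signals. Of 12 such miRNAs 10 were tested, and 9 were called lower, 0 higher and 1 was not called, beside 34.6% called lower of all tested miRNAs, with a median log2 fold change of -0.66 beside 0.01. With scaling to the 75th percentile of every human miRNA or with no filter on detection 5 of these 10 were called lower, with quantile normalization 6, and with the deposited processed values 6 when the same miRNAs were tested and 3 when every feature was. Without scaling 0 of the 10 were called and 5 lay above 0, and with the labelling spike-ins 7 lay above 0, 0 were called lower and let-7b-5p was called higher. miR-221-3p, which acts on KIT, had a scaled signal of 26.2 ± 3.73 in DMSO and 13.5 ± 2.40 after UNC1999 (SD, n = 4 each) with a log2 fold change of -0.97. It was detected on 4 DMSO and 2 UNC1999 arrays, so it passed the filter only through the DMSO group, in which it is high. Its call is therefore given as a description. Among miRNAs detected on all arrays, 8 of the 9 tested on this list were called lower, beside 139 of all 346. The cluster partner of miR-221-3p, miR-222-3p, was not detected. miR-29a-3p, miR-29b-3p and miR-29c-3p, which act on MCL1, had log2 fold changes of -0.99, -1.02 and -0.76, and miR-101-3p -0.41. Of those that act on CCND1, miR-15a-5p, miR-15b-5p and miR-16-5p had log2 fold changes of -0.52, -0.76 and -0.56 and miR-34a-5p -0.52, whereas let-7b-5p was at -0.13 (limma adjusted p = 0.27) and miR-195-5p was not detected.

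Most miRNAs whose genes, like that of miR-193a, are known to be silenced by DNA methylation in blood cancers were not detected in either group. The same holds for the array as a whole, where 369 to 500 of the 2549 human miRNAs were detected on each array. Of 13 on the array 11 were detected on 0 of 8 arrays, among them miR-34b-3p, miR-34b-5p, miR-34c-3p, miR-34c-5p, miR-124-3p, miR-203a-3p and miR-137. The other two are both strands of miR-9, of which miR-9-5p was called lower (log2 fold change -0.88, limma adjusted p = 0.0052) and miR-9-3p was not called (-0.19, limma adjusted p = 0.26). With the labelling spike-ins miR-9-3p was called higher and miR-9-5p was not called, and without scaling 0 were called. With no filter on detection 1 of the 13 was called, the undetected miR-129-2-3p, at a log2 fold change of -1.05 (limma adjusted p = 0.040).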

How the data were processed

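The deposited scanner files were made by the authors with Agilent Feature Extraction 10.7.3.1 and hold, per spot, an intensity after background subtraction with no normalization between arrays, with 0 or 1 marks for detection and outlier spots. A deposited table of processed log2 values, quantile normalized by the authors, served as an alternative. Outlier spots (1392 to 2292 of the 53144 spots of an array) were left out, spots were averaged per probe, and probes were summed per miRNA. Arrays were scaled to a common 75th percentile over 346 miRNAs (the geometric mean of the 8 percentiles). The floor, 8.98, was the lowest detected scaled signal of an array, taken as the median of the 8 arrays, and the log2 of lower values is that of the floor. limma 3.58.1 (lmFit and eBayes, R 4.3.3) was fitted on 456 miRNAs without a block, and the fit and the calls were checked on simulated log2 values. These were drawn after the floor and the filter, so the earlier steps were not part of this check. Single values were tested with exact permutation tests (scipy 1.17.1). The methods name a moderated test for these arrays, and the paired Student test is that of the statistics section of the study. The alternatives were other signals, scalings, floors, filters, blocks and thresholds, normexp (on the median spot intensity, which the files hold), a paired Student test by replicate number, and leaving out each array. Leaving out DMSO replicates 2 and 3 together, the unadjusted paired test, the ratios under other scalings and the alternatives for the ratio of miR-193a-3p to miR-365a-3p were added after seeing the data. The members and lists were chosen with earlier results of these data known. Named are the members, the other miRNAs of their loci, tested list members, the 3 most correlated miRNAs per tested member by value and by deviation, and cell type markers, and some undetected list members are named in addition. All arrays lay on 1 slide scanned in 1 session, and their number limits the precision.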

Additional observations from a re-analysis of the deposited data

Results flagged for a closer look

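Of the 26 groups of 4 values examined for the members and their ratios, 1 held a value far from the others, where chance gives about 1.3. The scaled signal of miR-365a-3p on the array of UNC1999 replicate 3 was 71.7, whereas the other 3 UNC1999 arrays lay between 80.3 and 81.4. Without that array the log2 fold change of miR-365a-3p was -0.52 and still called.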

How the results depend on the processing

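Of the members 2 were called as reported, and 1 with normexp, with no filter on detection or with the paired test, unadjusted or adjusted, where miR-193a-3p lost its call, among miRNAs detected on all arrays, where miR-193a-3p was not tested, and without scaling, where miR-365a-3p lost its call. With the spike-ins 2 were called too, but these were miR-193a-3p and miR-193b-3p, both higher, and miR-365a-3p lost its call. Over all miRNAs 322 were called as reported, 195 with no filter, 206 with every feature of the deposited processed values and 152 with the paired test after Benjamini-Hochberg adjustment. The log2 fold change of miR-193a-3p was -0.28 with normexp, and 0.64 but not called with no filter. That of miR-193b-3p turned to 0.080 with the 75th percentile over all miRNAs, 0.56 without scaling, 0.67 with the spike-ins and 0.024 without DMSO replicates 2 and 3. That of miR-365a-3p turned to 0.14 without scaling and 0.26 with the spike-ins. The cause was not tested. With the replicate block 308 miRNAs were called, and the log2 fold changes of the 3 tested members kept their calls. Same-numbered samples deviated with r = 0.18, 0.27, -0.42 and -0.39. These values do not settle whether the numbers pair the samples, since each group has 4 arrays.

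Leaving out each array gave log2 fold changes of 0.53 to 0.81 for miR-193a-3p, -0.24 to -0.04 for miR-193b-3p and -0.59 to -0.52 for miR-365a-3p, the same 2 members called and 296 to 326 miRNAs called. The change in ratio was 0.72 to 0.95 for miR-193a-3p to miR-193b-3p and 1.10 to 1.37 for miR-193a-3p to miR-365a-3p, both given as a description. It was 0.33 to 0.49 for miR-193b-3p to miR-365a-3p, where 3 against 4 arrays cannot give an exact permutation p below 0.057. Without DMSO replicates 2 and 3 these 3 changes were 0.80, 1.29 and 0.49, the last at the smallest exact permutation p of that design, 0.13. The change in the ratio of miR-193a-3p to miR-193b-3p was -0.15 with normexp, 0.29 without scaling and 0.19 with the spike-ins, each with overlapping groups. That of miR-193b-3p to miR-365a-3p was 0.32 with quantile normalization and 0.41 with the deposited values under either filter (exact permutation p = 0.11 and 0.057). Signals near the floor limit what can be said of miR-193a-3p and the 5p strands.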
